A study of Rattus norvegicus with 9 samples.

Results

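Metallothioneins and zinc transporters were followed in the skin of rats given carrageenan (CGN), a seaweed polysaccharide that provokes acute inflammation and pain. The members were 9 genes chosen by name: the metallothioneins Mt1a, Mt2A and Mt3, the importers Slc39a14, Slc39a8 and Slc39a10, the transporters Slc30a1 and Slc30a4, and the transcription factor Mtf1. A probe set was taken as a member's where its deposited gene symbol was the member's name or alias, which gave 7 genes with 11 probe sets, of 19101 genes and 43685 probe sets in all. Mt2A and Slc39a10 were not analysed here. Mt1a is named Mt1 in current RefSeq.

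CGN skin came from 4 Sprague Dawley rats given CGN at 30 mg/kg body weight, with paw swelling and pressure pain tested 3 hours later and skin taken 4 hours after CGN. Control skin came from 5 Sprague Dawley rats without CGN, titled non-treated, for which no injection, paw test or hour of harvest is given. Age, sex, the injected site and the part of the skin taken are not given in the sources used here, so CGN cannot be told apart from its injection and the handling. Each array stood for 1 rat, and values are RMA intensities on a linear scale. The skin label was checked against keratinocyte markers, whose summed intensity was 65811 to 68001 in CGN skin and 59112 to 72419 in control skin, with the basal keratin Krt14 at 16910 to 21750 in CGN skin and 19750 to 21438 in control skin. Other tissue was present too, since skeletal muscle markers summed to 1380 to 9112 in CGN skin and 16606 to 84146 in control skin.

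Metallothioneins are small, cysteine-rich proteins that bind zinc and copper and buffer the free zinc of a cell. ZIP proteins, encoded by the Slc39a genes, carry zinc into the cytosol from outside or from organelles, and ZnT proteins, encoded by the Slc30a genes, carry it out of the cytosol. MTF1 is a zinc-sensing transcription factor that binds metal response elements upstream of metallothionein genes and, in the mouse, of Slc30a1. In inflammation, interleukin 6 and glucocorticoids are known inducers of metallothionein genes, and zinc is drawn into tissues, a part of what is called nutritional immunity.

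Upstream sequences are shown for 2 members that rose and 2 that did not pass the test, because the metal response element is the element through which MTF1 acts. They are the 250 bases before the annotated transcript start, from RefSeq on rat build GRCr8, written 5′ to 3′ on the gene's own strand. Capitals mark each match to the core TGCACNC or TGCGCNC on either strand, and no 2 matches overlapped.
Mt1a (rose, chr19:10832976-10833225, minus strand): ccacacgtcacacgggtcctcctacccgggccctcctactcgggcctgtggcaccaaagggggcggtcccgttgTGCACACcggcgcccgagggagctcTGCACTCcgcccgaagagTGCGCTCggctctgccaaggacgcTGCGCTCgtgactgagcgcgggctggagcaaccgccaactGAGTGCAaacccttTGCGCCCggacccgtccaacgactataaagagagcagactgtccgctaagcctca
Slc30a4 (rose, chr3:130228889-130229138, minus strand): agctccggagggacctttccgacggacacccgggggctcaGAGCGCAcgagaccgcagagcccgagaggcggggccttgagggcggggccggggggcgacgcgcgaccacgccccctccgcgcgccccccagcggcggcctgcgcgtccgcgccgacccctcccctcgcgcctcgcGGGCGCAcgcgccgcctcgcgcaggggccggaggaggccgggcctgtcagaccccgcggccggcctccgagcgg
Mt3 (not past the test, chr19:10856081-10856330, minus strand): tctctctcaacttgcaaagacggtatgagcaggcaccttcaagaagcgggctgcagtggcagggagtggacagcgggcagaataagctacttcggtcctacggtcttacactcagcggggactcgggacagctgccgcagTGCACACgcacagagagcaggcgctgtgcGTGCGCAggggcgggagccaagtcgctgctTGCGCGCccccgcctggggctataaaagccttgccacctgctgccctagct
Slc30a1 (not past the test, chr13:106021769-106022018, plus strand): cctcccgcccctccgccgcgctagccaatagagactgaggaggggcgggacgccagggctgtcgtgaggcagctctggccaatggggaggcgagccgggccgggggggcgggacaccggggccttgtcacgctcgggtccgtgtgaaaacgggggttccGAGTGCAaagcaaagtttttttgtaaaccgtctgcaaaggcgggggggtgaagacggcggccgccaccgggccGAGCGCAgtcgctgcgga

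The Mt1a window held 6 matches, starting between 176 and 55 bases before the transcript start, where position -1 is the base next to it. At least 6 matches were found in 9 of 33469 RefSeq windows of the same length (0.0269%). The Mt3 window held 3 matches, those of Slc30a4, Slc30a1 and Mtf1 held 2 each, and that of Slc39a8 held none. No window was available here for Slc39a14, so this riser was not searched. At least 2 matches stood in 4.9% of all windows and at least 1 in 20.6%. The STAT-type motif TTCNNNGAA, which reads the same on both strands, stood in 7.67% of all windows and had 1 match at Slc39a8 and none at Mt1a, Mt3, Slc30a1, Slc30a4 or Mtf1. A match is a run of letters in this window and says nothing of binding in these samples.

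**Figure D1:**
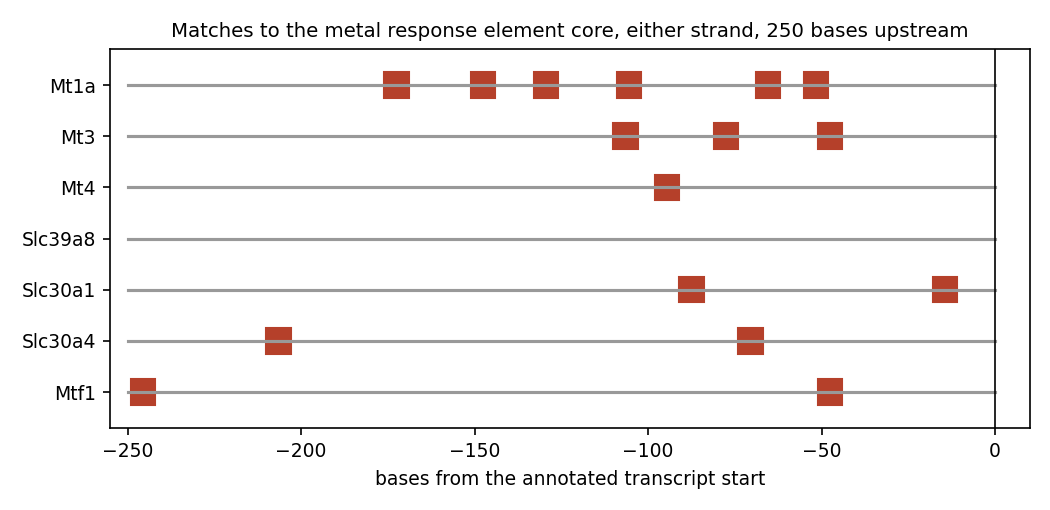
Matches to the metal response element core (red boxes, 7 bases, either strand) along the 250 bases before the annotated transcript start of 7 genes, with the distance from the start in bases on the horizontal axis. Mt1a has 6 matches, Mt3 has 3, and Slc39a8 has none. Slc39a14 is not shown, as no window was available.

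Of the 7 measured members, 5 rose in CGN skin, none fell and 2 did not pass (limma across all genes, adjusted p under 0.05). Among all 19101 genes, 22.2% passed by the same test, of which 8.72% of all genes rose and 13.5% fell. For the same 5 members every CGN sample lay above every control sample, as it did for 8.44% of all genes. Those that rose were Mt1a, both measured ZIP importers Slc39a14 and Slc39a8, the ZnT transporter Slc30a4, and Mtf1. With a change of at least 2-fold asked for in addition, Mt1a and Slc39a8 remained (3.44% of all genes rose by this rule), and at 1.5-fold all but Mtf1 did (5.9% of all genes). The median log2 change of the 7 members was 0.79, beside -0.01 for all genes. The members were chosen with earlier results of these data known, so the shares of all genes do not test them. In whole skin, more cells of a type and more RNA per cell cannot be told apart.

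**Figure D2:**
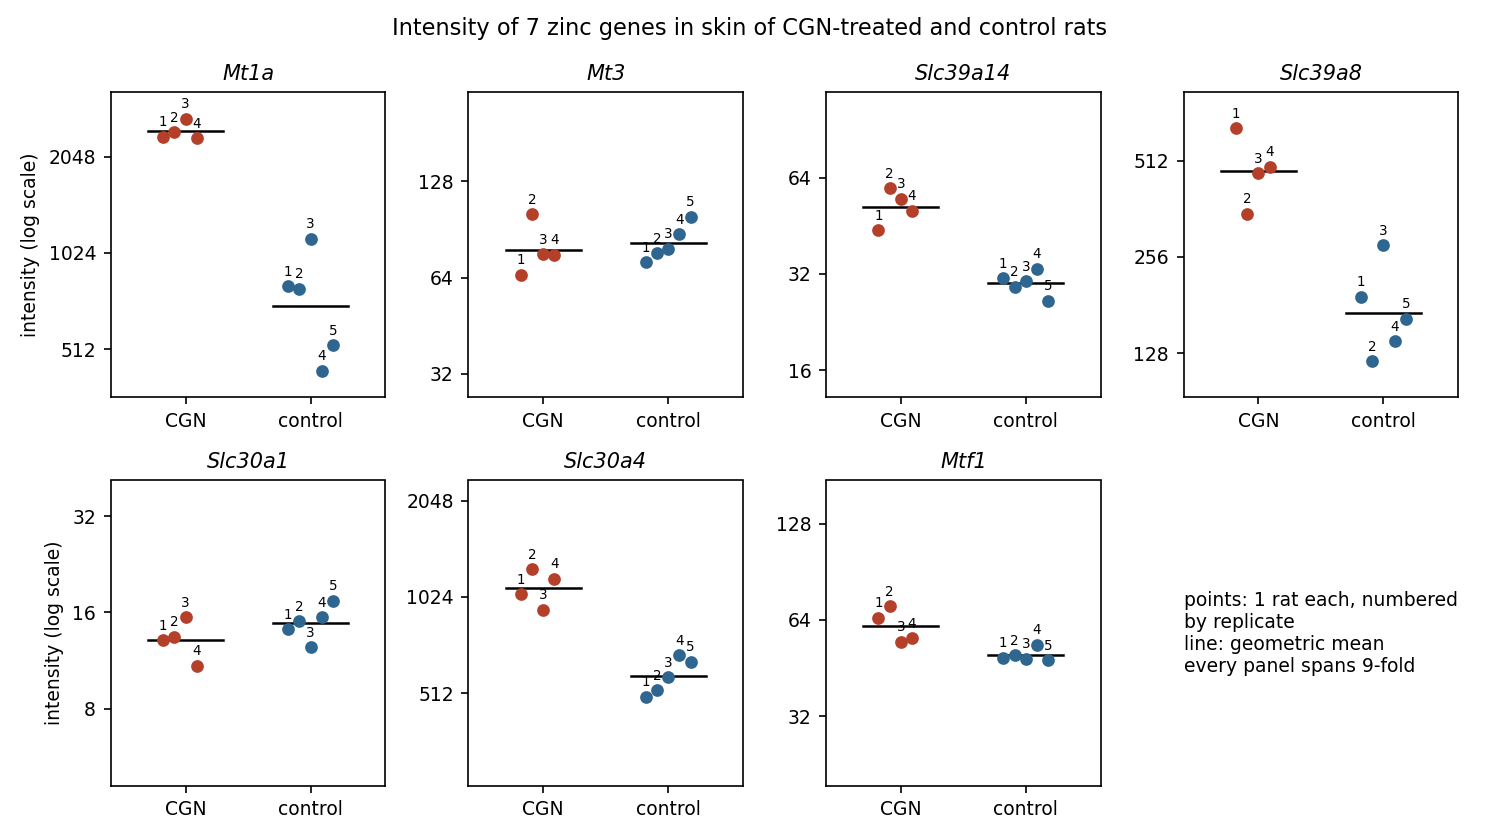
Intensity of the main probe set of 7 members in each rat (points, numbered by replicate), on a logarithmic axis that spans the same ratio in every panel, CGN left and control right, with the geometric mean as a line. The groups are separate for Mt1a, Slc39a14, Slc39a8, Slc30a4 and Mtf1 and overlap for Mt3 and Slc30a1.

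Mt1a, a zinc-binding metallothionein found in most tissues, gave the largest change among the members. Its intensity was 2367, 2446, 2695 and 2344 in CGN replicates 1 to 4, against 806, 791, 1133, 439 and 526 in control replicates 1 to 5. The lowest CGN sample stood 2.07-fold above the highest control, replicate 3. CGN samples differed among themselves by at most 1.15-fold and control samples by up to 2.58-fold. The means were 2463 ± 161 in CGN skin and 739 ± 273 in control skin (SD, n = 4 and 5). The geometric means, 2459 in CGN skin and 699 in control skin, differed 3.52-fold (log2 change 1.81 ± 0.23 SE, limma adjusted p = 0.000390), and folds of group differences are ratios of geometric means throughout. The probes' sequences were not used here, and Mt2A is a close relative, so whether this probe set also takes up Mt2A RNA was not tested.

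Mt3, a metallothionein known mainly from the brain, did not pass. It had intensities of 65.4, 101, 75.7 and 75.5 in CGN skin, against 71.5, 76.2, 78.9, 87.6 and 99.4 in control skin. The groups covered the same range, and the log2 change was -0.07 (95% interval -0.38 to 0.24, limma adjusted p = 0.800). Its only probe set has an ID ending in _s_at, which on such arrays stands for probes shared with other transcripts.

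Mt4, a metallothionein of stratified epithelia in mouse and human and the only other measured member of that family, was lower in CGN skin. Its intensity was 8819, 8614, 6876 and 7892 in CGN skin, against 11757, 11452, 10418, 11861 and 10264 in control skin. All 4 CGN samples were below all 5 controls, as for 10.6% of all genes, and the fall was 0.47 on the log2 scale (± 0.10 SE, limma adjusted p = 0.00620). With the mean of skeletal muscle markers as a covariate this call was lost (log2 change -0.39, adjusted p = 0.322). In RefSeq Mt1, Mt2A, Mt3 and Mt4 lie next to each other on chromosome 19, in that order. Of the 3 measured genes of this row, 1 rose, 1 fell and 1 did not pass.

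Slc39a8, or ZIP8, carries zinc, manganese and cadmium into cells and in human cells is a target of NF-kB. Its intensity was 647, 349, 467 and 490 in CGN skin, against 192, 121, 278, 140 and 164 in control skin. CGN replicate 1 was the highest sample and control replicate 3 the highest control, and the groups stayed apart. The difference was 2.78-fold (log2 change 1.48 ± 0.24 SE, limma adjusted p = 0.00153).

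Slc39a14, or ZIP14, carries zinc, iron and manganese and is raised by interleukin 6 in mouse liver. On its main probe set it had 43.7, 59.2, 54.9 and 50.4 in CGN skin, against 31.0, 29.2, 30.4, 33.2 and 26.4 in control skin. CGN replicate 1 was the lowest of its group and still 1.32-fold above the highest control. The log2 change was 0.79 ± 0.11 SE (1.73-fold, limma adjusted p = 0.000590). The main probe set has the suffix _s_at, whereas the other has not. That other probe set gave 23.4, 42.8, 43.1 and 52.9 in CGN skin, against 14.8, 16.7, 12.2, 19.5 and 17.2 in control skin. The groups were again separate, at a log2 change of 1.29 ± 0.21 SE (2.45-fold, limma over all probe sets, adjusted p = 0.00200), so the size of the rise depends on the probe set.

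Slc30a4, or ZnT4, moves zinc into vesicles and is needed for zinc in milk in the mouse. Its intensity was 1045, 1248, 934 and 1167 in CGN skin, against 499, 524, 575, 672 and 642 in control skin. Every CGN sample was at least 1.39-fold above the highest control. The log2 change was 0.92 ± 0.12 SE (1.89-fold, limma adjusted p = 0.000467). A dimmer probe set gave 45.8, 121, 64.0 and 54.1 in CGN skin, against 31.4, 33.3, 31.0, 34.3 and 45.3 in control skin. There CGN replicate 1 and control replicate 5 nearly touched, and the log2 change was 0.93 ± 0.24 SE (limma over all probe sets, adjusted p = 0.0231).

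Slc30a1, or ZnT1, exports zinc across the cell membrane. It had intensities of 13.1, 13.4, 15.5 and 10.9 in CGN skin, against 14.1, 15.0, 12.4, 15.4 and 17.4 in control skin. The groups overlapped, and the log2 change was -0.17 (95% interval -0.45 to 0.10, limma adjusted p = 0.395). These values are close to or under the median intensity of an array, 16.7 to 17.8, and without detection calls it is not known whether they stand above background.

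Mtf1, the zinc-sensing factor itself, was slightly higher in CGN skin. Its main probe set gave 65.1, 70.7, 54.6 and 56.2 in CGN skin, against 48.7, 49.7, 48.3, 53.4 and 47.9 in control skin. CGN replicates 3 and 4 lay just above control replicate 4, by 1.02-fold for the lower of them. The log2 change was 0.31 ± 0.10 SE (1.24-fold, limma adjusted p = 0.0450), and the call was lost without most single samples, at adjusted p up to 0.133. Of its other probe sets, one gave 0.44 ± 0.12 SE (limma over all probe sets, adjusted p = 0.0298) and the other 0.06 ± 0.09 SE (adjusted p = 0.771). In that fit over all probe sets the main one was at adjusted p = 0.0577.

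**Figure D3:**
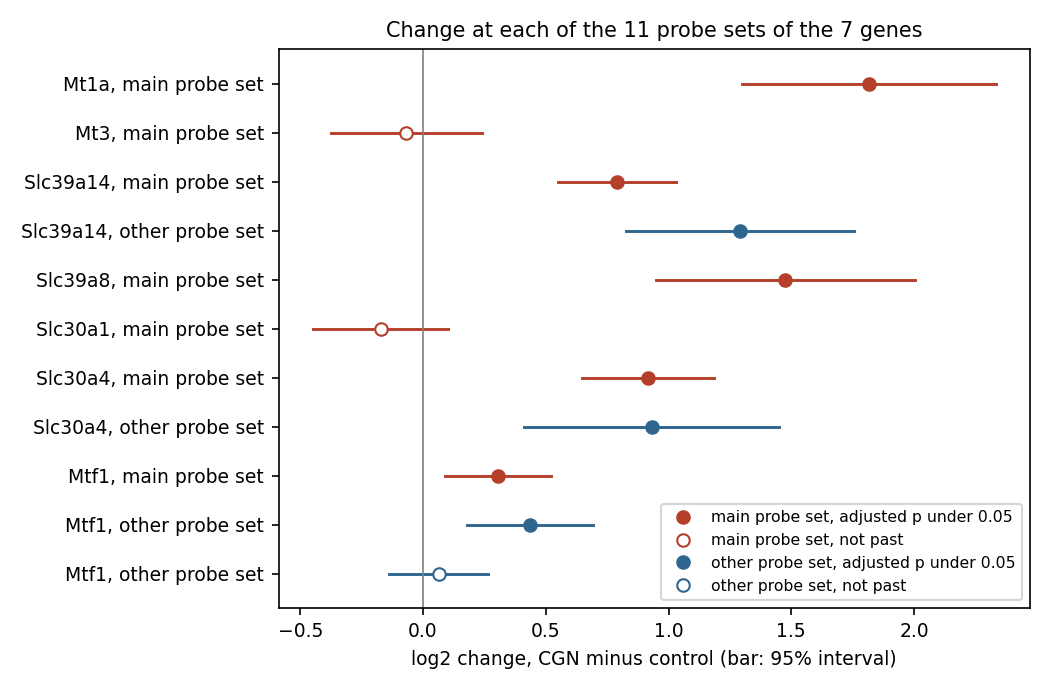
Log2 change (CGN minus control) with its 95% interval at each of the 11 probe sets of the 7 members, red for the main and blue for other probe sets, filled where the adjusted p is under 0.05. Of the 4 other probe sets, 3 rose, and 1 of Mtf1 lies at 0.06.

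Among the 4 other probe sets of members 3 rose, as did 5.3% of all 43685 probe sets. All 4 belong to Slc39a14, Slc30a4 and Mtf1, which rose on their main probe sets. They measure the same genes again, so the share of all probe sets does not test them. Between the 5 members that rose, deviations from the group means did not run in step: over the 9 arrays their 10 pairwise correlations went from -0.59 for Mt1a with Slc30a4 to 0.51 for Mt1a with Slc39a8. Control replicate 3 was the highest control for Mt1a and for Slc39a8, whereas control replicate 4 was the highest for Slc30a4, Mtf1 and the main probe set of Slc39a14. These correlations describe 9 arrays that share one normalization, and they carry no test.

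Among the other zinc transporters 2 fell and none rose. Since the members were chosen with earlier results known, their contrast with the transporters left out may reflect that choice. Of 11 other ZIP genes, 0 rose, 2 fell and 9 did not pass, with a median log2 change of 0.04, and of 8 other ZnT genes 0 passed, with a median of 0.07. Among all genes 8.72% rose and 13.5% fell, so these counts are near what all genes show, and no test set these genes against the members. Before adjustment, limma's p was under 0.05 for 3 of these ZIP genes and for 1 ZnT gene, Slc30a7. Slc39a3, an importer of the cell membrane, had 130, 140, 118 and 95.7 in CGN skin, against 181, 191, 164, 188 and 171 in control skin. It fell by 0.58 on the log2 scale (± 0.12 SE, limma adjusted p = 0.00510), and its other probe set fell by 0.68 (limma over all probe sets, adjusted p = 0.00590). Slc39a13, a transporter known for its part in connective tissue, had 130, 146, 168 and 132 in CGN skin, against 207, 185, 241, 189 and 189 in control skin. It fell by 0.49 (± 0.11 SE, limma adjusted p = 0.00951). In both genes all CGN samples lay below all controls. Neither passed with the muscle covariate (adjusted p = 0.100 for Slc39a3 and 0.259 for Slc39a13).

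The other 17 ZIP and ZnT genes had log2 changes between -0.27 for Slc39a6 (adjusted p = 0.0852) and 0.36 for Slc30a7 (adjusted p = 0.146), and none passed. Slc39a7, which releases zinc from the endoplasmic reticulum, differed by 0.04 (95% interval -0.19 to 0.27), and Slc39a1 by 0.13 (95% interval -0.09 to 0.36).

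**Figure D4:**
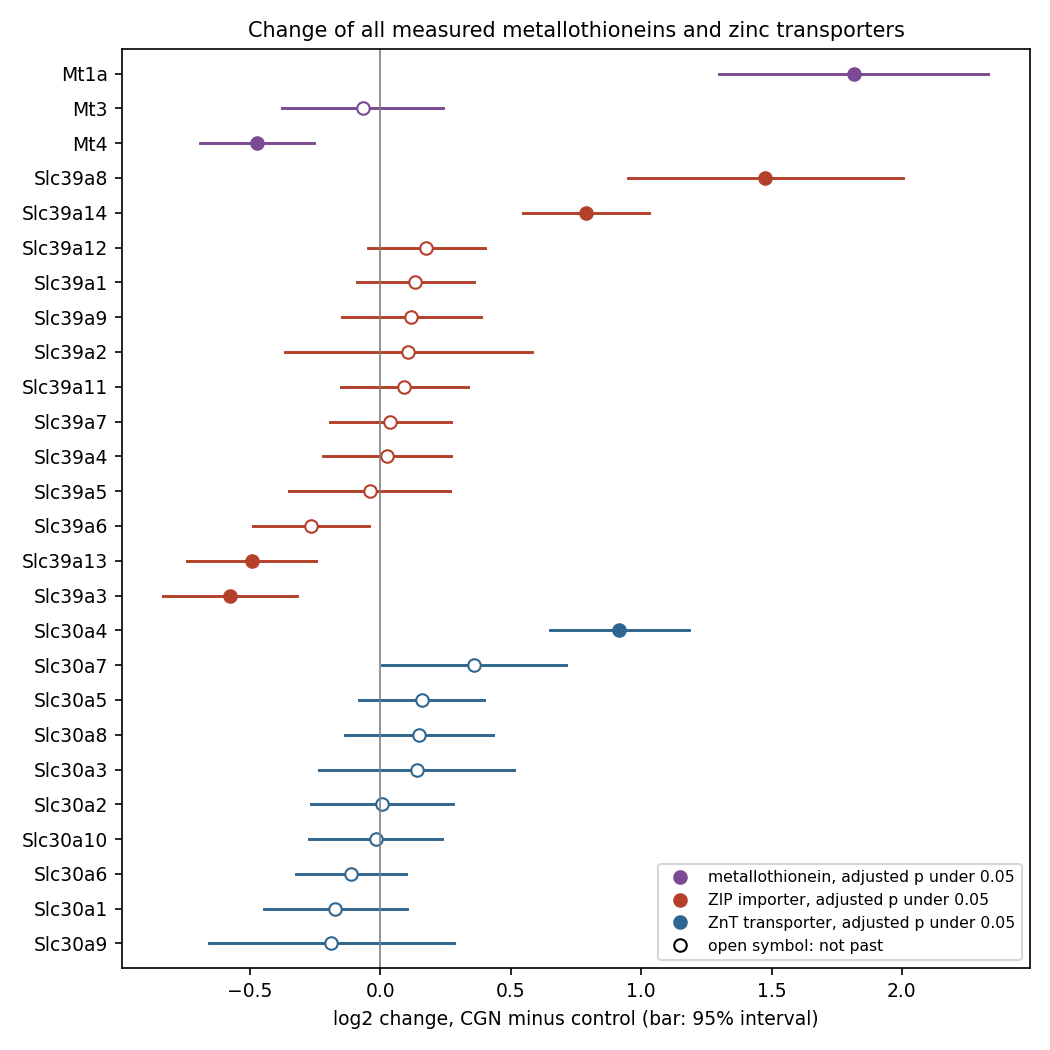
Log2 change (CGN minus control) with its 95% interval for all 3 measured metallothioneins, 13 ZIP genes and 10 ZnT genes, each family sorted by size and filled where the adjusted p is under 0.05. Mt1a, Slc39a8, Slc39a14 and Slc30a4 lie to the right of 0, and Mt4, Slc39a13 and Slc39a3 to the left.

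Of 4 other genes reported as MTF1 targets in the mouse, 2 rose and 0 fell, against 8.72% and 13.5% of all genes. The LIM domain protein gene Csrp1 had 3651, 5618, 4205 and 3598 in CGN skin, against 1578, 1929, 2427, 1812 and 2008 in control skin (log2 change 1.12 ± 0.16 SE, limma adjusted p = 0.000647). The stress-responsive gene Ndrg1 rose by 0.43 ± 0.09 SE (limma adjusted p = 0.00577), and Gclc and Selenow were at -0.10 and -0.14 and did not pass. Neither Csrp1 (adjusted p = 0.152) nor Ndrg1 (adjusted p = 0.259) passed once the muscle value was a covariate. Of 11 genes of the signals known to induce metallothioneins, 7 rose and 2 fell, with a median of 1.06. The list holds ligands and receptors and also genes that respond to these signals, such as Socs3, Sgk1 and Tsc22d3. Il6, the cytokine interleukin 6, averaged 5349 ± 1359 in CGN skin and 11.6 ± 1.12 in control skin (SD, n = 4 and 5) and rose by 8.82 ± 0.15 SE on the log2 scale. Il1b rose by 5.91 ± 0.25 SE and the glucocorticoid-induced kinase Sgk1 by 1.47 ± 0.14 SE (limma adjusted p for Il6, Il1b and Sgk1 = 1.83e-10, 1.15e-07 and 5.17e-05). The glucocorticoid genes of this list moved in both directions. Sgk1 and Fkbp5 (1.01 ± 0.24 SE, limma adjusted p = 0.0118) rose, and Per1 was at -0.15 and did not pass. The 2 genes of the list that fell were the glucocorticoid receptor gene Nr3c1, by 1.09 ± 0.19 SE, and the glucocorticoid-induced Tsc22d3, by 1.68 ± 0.19 SE (limma adjusted p = 0.00220 and 0.000145). With the muscle covariate Sgk1 passed (adjusted p = 0.00566), and Fkbp5, Nr3c1 and Tsc22d3 did not (adjusted p = 0.343, 0.422 and 0.0602).

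Most skeletal muscle and neutrophil markers differed between the groups, while among all genes 8.72% rose and 13.5% fell. All 23 skeletal muscle markers were measured, of which 20 fell and 0 rose, and their mean log2 value was 5.40 to 7.63 in CGN skin and 8.33 to 10.90 in control skin. Of 12 neutrophil markers 9 rose and 0 fell, with summed intensities of 6174 to 17061 in CGN skin and 1992 to 2800 in control skin. Of 9 macrophage markers 3 rose and 0 fell, with sums of 1758 to 3511 in CGN skin and 1312 to 2208 in control skin. Of 9 measured keratinocyte markers 2 rose and 1 fell, of 6 fibroblast and of 6 endothelial markers 1 each rose and 0 fell, and of 8 adipocyte markers 0 passed in limma, with 1 at an unadjusted p under 0.05 and a median of 0.12. The lists other than muscle and neutrophil are short, and none was tested against the 22.2% of all genes that passed. The part of neutrophils and macrophages in the members' changes was not tested.

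With the muscle value as a covariate in limma, Mt1a and Slc39a8 still passed, and their changes were larger. Mt1a was at 2.43 ± 0.36 SE (adjusted p = 0.00453) and Slc39a8 at 2.18 ± 0.34 SE (adjusted p = 0.00650), in a fit where 2.31% of all genes rose. Slc30a4 (0.70 ± 0.21 SE, adjusted p = 0.127), Slc39a14 (0.63 ± 0.19 SE, adjusted p = 0.136) and Mtf1 (0.23 ± 0.18 SE, adjusted p = 0.590) kept their sign and did not pass. Mt3 and Slc30a1 were at -0.51 ± 0.19 SE and -0.55 ± 0.18 SE (adjusted p = 0.215 and 0.164). The muscle value correlated with the group at -0.82 over the 9 arrays, so the 2 share most of their variation, and the SE of every member is larger in this fit.

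**Figure D5:**
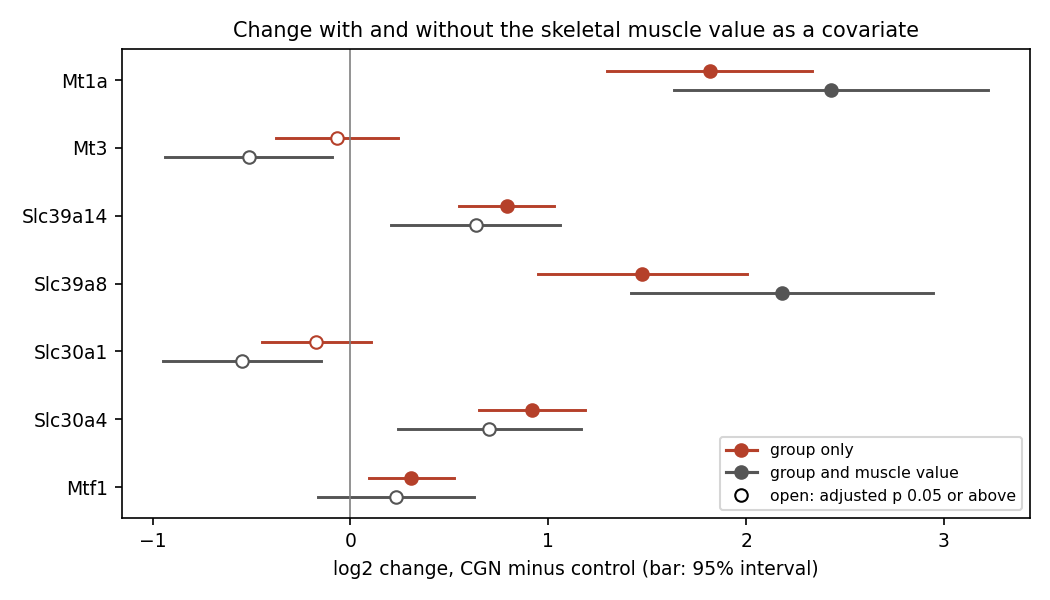
Log2 change (CGN minus control) with its 95% interval for 7 members, from the fit with group only (red) and from the fit with the mean of 23 skeletal muscle markers added (grey), filled where the adjusted p is under 0.05. Mt1a and Slc39a8 move to the right with the muscle value and stay filled, while Slc39a14, Slc30a4 and Mtf1 move to the left and become open.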

How the data were processed

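Biotin-labelled cRNA from skin was hybridised to 1-colour arrays, 1 per rat. The deposited values are intensities on a linear scale made by the authors with RMA, per the submitters' processing notes, and its version and the genome build are not given in the sources used here. They ran from 4.07 to 27404. Detection calls, probe-level signals and scan batches were not used here, and the number of arrays limits the precision. The 2 deposited tables held the same 43685 probe sets, and 8 samples had identical columns in both. A column numbered 5 among the CGN columns equalled 1 CGN sample, and the labels' numbering 1 to 4 was used.

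Probe sets were named by RefSeq accession (9024), current symbol (13797), older symbol (2568) or the deposited symbol (2118), and 16178 without a single name stayed out. A gene with several probe sets (5849 genes) was represented by the one with the highest mean log2 over the 9 arrays. Intensities were converted to log2 with no pseudocount or filter and tested 2-sided by limma 3.58.1 under R 4.3.3, through lmFit and eBayes with no term beside group. Adjusted p come from the Benjamini-Hochberg method over 19101 genes, with a threshold of 0.05. Other probe sets were read from the same model over all 43685. Changes are log2 CGN minus control with the standard error (SE). The fit was tested on simulated data. Upstream windows were searched in Python 3.11.15.

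The members and gene lists were chosen with earlier results of these data known. Named are all members, the members of the metallothionein, ZIP, ZnT and MTF1 target lists that passed, the 3 smallest adjusted p of each list on iron and copper, S100 proteins and inducing signals, and for each called member the 3 genes most correlated with it, of which 1 is not reported here. Other transporters, markers and inducing-signal or iron genes with values were named after their values were seen. Replicate numbers are shared by the groups, and the labels do not say that they pair the rats. The alternatives tried were median centring, quantile normalization, a filter on the dimmest 30% of genes, other uses of probe sets, trend and robust moderation, array weights, a plain test, a replicate block, a muscle covariate, fold thresholds and leaving out each sample.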

Additional observations from a re-analysis of the deposited data

Results flagged for a closer look

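Of 48 groups of values examined, 1 held a sample far from the others, where chance flags about 1 in 20. On the dimmer probe set of Slc30a4, control replicate 5 had an intensity of 45.3, while the other 4 controls lay between 30.96 and 34.34. On the main probe set of the gene this sample, at 642, was within the range of the controls.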

How the results depend on the processing

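The rises of Mt1a (log2 change 1.65 to 2.43) and Slc39a8 (1.33 to 2.18) kept their direction and passed under all 19 alternatives, with adjusted p up to 0.00810 and 0.0169. Those of Slc39a14 and Slc30a4 passed under all but the muscle covariate. Mtf1 passed under 7 of 19 alternatives: it did not with median centring (adjusted p = 0.0721), all probe sets tested (0.0577), trend and robust moderation (0.0794), the muscle covariate (0.590), the replicate block (0.164), or without CGN replicates 1, 2 or 4 (0.0919, 0.133 and 0.0510) or control replicates 1, 2, 3 or 5 (0.0741, 0.0848, 0.0792 and 0.0938). Mt3 changed sign without passing, to 0.0156 with quantile normalization and 0.00020 with the replicate block, and ran from -0.19 to 0.0189 when single samples were left out, the last without CGN replicate 1.

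The count of members past the threshold, 5, fell to 2 with the muscle covariate and to 2 at a fold of 2, and was 4 or 5 without single samples. Under the muscle covariate 509 of all genes passed in place of 4243, and 9 of the listed genes on metals and inducing signals in place of 22. The other probe sets of members that passed numbered 3, against 1 by the plain test, 0 with the muscle covariate and 1 to 3 without single samples, the lowest without CGN replicate 3, where those of Slc30a4 and Mtf1 were at adjusted p = 0.0526 and 0.0813. With the replicate block 2603 of all genes passed. Same-numbered samples of the groups deviated with correlations of -0.28 to 0.04, which show no sign of pairing but cannot settle it. The block leaves control replicate 5 without a partner, so its log2 changes equal those without that sample. Among the members this block ended only the call of Mtf1. Of 379 values of 20 named genes under the alternatives, 354 kept their direction and side of the threshold.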

Other observations

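Of 22 genes of iron and copper handling, 4 rose, 2 fell and 16 did not pass, with a median log2 change of 0.15. Among all genes 8.72% rose and 13.5% fell, and the share of the list that passed in this fit is near that background. With the muscle covariate 3 of the list rose and 1 fell, where 442 and 67 of all 19101 genes did. Steap4 and Cp passed in that limma fit (adjusted p = 0.0179 and 0.0191) and not in the fit with group only (adjusted p = 0.0620 and 0.136). Slc11a1, the metal transporter of phagocyte vesicles, had 148, 204, 193 and 341 in CGN skin, against 30.1, 25.4, 50.5, 25.8 and 22.9 in control skin (log2 change 2.83 ± 0.27 SE, limma adjusted p = 3.75e-05). Tf, the iron carrier transferrin, rose by 1.39 ± 0.29 SE (adjusted p = 0.00567), and with the muscle covariate it was at 2.02 (adjusted p = 0.0534). Slc31a2, a relative of the copper importer, fell by 0.89 ± 0.16 SE (adjusted p = 0.00294). The zinc-binding S100a8 and S100a9, which together form calprotectin, both rose, by 1.67 ± 0.26 SE and 3.06 ± 0.31 SE (limma adjusted p = 0.00118 and 7.36e-05). With the muscle covariate S100a8 was at 1.72 (adjusted p = 0.0980).

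The genes most like each called member over the 9 arrays were found by Pearson correlation of log2 values, as a description, since the groups lie apart. These genes were picked for the highest r among all genes tested, so values this high partly reflect that choice. For Mt1a they were Plpp1, Phc2 and Bcr (r = 0.983, 0.982 and 0.976, and 0.876, 0.870 and 0.821 with group means taken out). For Slc39a8 they were Pdgfra, Ptpro and C5ar1 (0.990, 0.980 and 0.976, and 0.949, 0.899 and 0.892 with group means taken out). For Slc39a14 they were Nfil3, Il7r and Twist2 (0.987, 0.982 and 0.980, and 0.906, 0.876 and 0.852 with group means taken out). For Slc30a4 they were Baz1a, Macir and Socs5 (0.994, 0.990 and 0.989, and 0.964, 0.913 and 0.913 with group means taken out). For Mtf1 they included Cldnd1 and Abhd17b (0.964 and 0.954, and 0.898 and 0.858 with group means taken out).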
